A study of Mus musculus with 28 samples.

Results

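The report covers 10 genes: Hif1a, which encodes the oxygen-regulated subunit of the transcription factor HIF-1, and 9 genes of glucose uptake and glycolysis (Slc2a1, Hk1, Hk2, Hk3, Pfkl, Pfkp, Aldoa, Pgk1 and Ldha). They were followed across the 7 groups of an array study of mouse peritoneal resident macrophages. Each gene was read from probe sets to which the array's annotation gives that symbol alone, and a gene with several was represented by the brightest of them on average. All 10 genes had such a probe set and all 10 were among the 13512 genes tested. They were chosen because glucose uptake, glycolysis and HIF-1 alpha are named in the training of macrophages and monocytes by β-glucan.

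The mice were on a C57BL/6 background, and each group had 4 arrays. Uninjected ATF7 knockout mice (KO) were set against uninjected wild-type mice (WT). The other groups were wild-type mice injected intravenously with LPS from E. coli O111:B4, with PGN, with imiquimod (IMQ) or with β-glucan (BG), and wild-type mice injected with PBS, their control. The labels give 3 weeks between injection and sampling. The protocol gives 3 to 4 weeks, with mice 7 to 8 weeks old at injection and 10 to 12 weeks old at analysis, and the age of the uninjected mice is not given in the sources used here. Macrophages came from peritoneal washes without thioglycollate and stayed overnight in serum-free medium before RNA was taken. The submitters describe the 4 arrays of a group as independent experiments. Whether each came from 1 mouse or from pooled mice, and which part of Atf7 is deleted, is not given.

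Glucose enters macrophages mainly through GLUT1, the product of Slc2a1, and is trapped in the cell when a hexokinase phosphorylates it. Phosphofructokinase commits it to glycolysis, aldolase splits the sugar, phosphoglycerate kinase makes the first ATP of the pathway, and lactate dehydrogenase turns pyruvate into lactate. In the presence of oxygen the HIF-1 alpha protein is hydroxylated by the EGLN enzymes and destroyed through VHL, so that its messenger RNA and its protein need not move together. With little oxygen, or on stimulation, it pairs with ARNT and binds the core sequence RCGTG in many glycolytic genes. In human monocytes trained with β-glucan, an AKT, mTOR and HIF-1 alpha route with a switch to aerobic glycolysis has been described.

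Array quality, the knockout and the cell type were checked first. The correlation between arrays of a group was 0.985 to 0.996 over all probe sets, and median linear signal per array was 107 to 115. One Atf7 probe set read 7.09, 7.09, 7.19 and 6.94 log2 in the KO arrays, against 10.03, 9.90, 10.09 and 9.85 in the WT arrays, and a second lay at 10.25 to 10.34 in KO and 10.64 to 10.80 in WT. All 12 macrophage markers lay above the background floor of 6.32 log2, which was set from odorant and vomeronasal receptor probe sets. Their mean per array was 11.12 to 11.18 log2 in KO against 11.20 to 11.27 in WT, and 10.98 to 11.07 in BG against 11.09 to 11.29 in PBS. Of the 12, 4 fell and 2 rose in KO, where 10.7% of all genes fell and 17.7% rose. After BG 5 fell and 1 rose, where 21.4% of all genes fell and 20.2% rose. The summed linear signal of the 12 was 41360 to 41694 in KO, within the 40984 to 42985 of WT. In BG it was 38282 to 39250, against 40499 to 43259 in PBS. The mean of 8 monocyte and dendritic cell markers, 6 of them above the floor, was 7.16 to 7.32 in KO against 7.45 to 7.55 in WT, and 7.30 to 7.43 in BG against 7.48 to 7.74 in PBS. Of the 7 tested, 1 rose and 3 fell in KO, and 3 rose and 2 fell after BG, beside the same shares. The summed linear signal of these markers was 1763 to 2091 in KO against 2105 to 2660 in WT. In BG it was 2271 to 2364, within the 2128 to 2693 of PBS. B cell markers were also present: 11 of 13 had a mean above the floor, all but Vpreb3 and Cr2. Their summed linear signal per array was 3040 to 4410 in KO against 4529 to 7459 in WT, and 4760 to 5299 in BG against 5509 to 7293 in PBS. Cell cycle markers averaged 6.80 ± 0.22 log2 in KO and 7.63 ± 0.30 in WT, and 7.47 ± 0.08 in BG and 7.88 ± 0.28 in PBS (SD, n = 4 each). Of 12 neutrophil markers 5 had a mean above the floor, Csf3r (11.47), Mmp8 (9.09), Camp (6.50), S100a8 (6.39) and Mpo (6.36), and the other 7, Ly6g, S100a9 and Elane among them, lay under it. The samples are bulk RNA, so fewer cells of a type and less RNA per cell cannot be told apart.

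The promoters of 4 of the genes are shown because they bracket what the arrays read: Hif1a had the largest fall after BG, Hk3 the largest rise in KO, Pgk1 rose in both, and Ldha was called in no comparison. Each window runs from 250 bases before the start of transcription to 50 bases after it, 5′ to 3′ on the gene's own strand, from RefSeq's annotation of GRCm38.p6. Capitals mark the HIF core letters ACGTG and GCGTG on either strand (CACGT and CACGC where the match is on the other strand) and the ATF/CREB element TGACGTCA.
Hif1a, chr12:73907617-73907916, plus strand: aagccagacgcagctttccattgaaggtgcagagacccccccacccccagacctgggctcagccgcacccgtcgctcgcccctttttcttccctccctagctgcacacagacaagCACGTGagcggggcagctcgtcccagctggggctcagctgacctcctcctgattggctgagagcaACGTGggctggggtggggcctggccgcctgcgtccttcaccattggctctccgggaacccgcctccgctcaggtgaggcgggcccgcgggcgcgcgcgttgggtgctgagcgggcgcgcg
Hk3, chr13:55021336-55021635, minus strand: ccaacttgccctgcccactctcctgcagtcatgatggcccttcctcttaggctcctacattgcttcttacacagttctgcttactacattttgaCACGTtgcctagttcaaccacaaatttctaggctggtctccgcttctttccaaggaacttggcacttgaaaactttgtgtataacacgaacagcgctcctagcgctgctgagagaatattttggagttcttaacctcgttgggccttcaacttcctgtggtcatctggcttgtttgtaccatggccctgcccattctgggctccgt
Pgk1, chrX:106186850-106187149, plus strand: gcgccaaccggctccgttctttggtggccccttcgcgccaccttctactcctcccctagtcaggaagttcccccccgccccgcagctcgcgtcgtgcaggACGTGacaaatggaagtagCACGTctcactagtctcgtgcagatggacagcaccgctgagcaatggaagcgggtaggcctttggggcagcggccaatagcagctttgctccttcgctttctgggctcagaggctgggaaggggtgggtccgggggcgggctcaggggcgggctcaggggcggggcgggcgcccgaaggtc
Ldha, chr7:46845554-46845853, plus strand: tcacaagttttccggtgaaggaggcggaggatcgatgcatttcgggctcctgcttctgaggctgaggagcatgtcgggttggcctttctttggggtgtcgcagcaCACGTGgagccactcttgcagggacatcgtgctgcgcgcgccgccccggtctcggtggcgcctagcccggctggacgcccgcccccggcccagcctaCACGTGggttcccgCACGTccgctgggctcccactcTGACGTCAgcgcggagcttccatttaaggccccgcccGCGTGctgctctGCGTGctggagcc

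Counting each strand, so that CACGTG counts on both, the Hif1a window held 3 core matches, the Hk3 window 1, the Pgk1 window 2 and the Ldha window shown 7. RefSeq gives Ldha a further window, which held 2 core matches and no TGACGTCA. The Hk3 window was also the poorest in G and C, at 49.0%, against 69.3% for Hif1a, 66.7% for Pgk1 and 67.3% for Ldha. Over all 14 windows that RefSeq gives the 10 genes, 12 held ACGTG or GCGTG, and each gene had at least 1 such window. Of 32851 windows of that length in the genome, 19.62% held ACGTG, 32.39% GCGTG and 43.77% either. TGACGTCA stood in 1 of the 14 windows, the one shown for Ldha, with its first base at position -12 from the start, and in 1.79% of all windows. A match to these letters is a description of the window only.

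In the ATF7 knockout 7 of the 10 genes differed from WT, and not in 1 direction. Slc2a1, Hk3, Aldoa and Pgk1 were higher, by 0.29, 1.11, 0.12 and 0.47 log2, while Hif1a, Hk1 and Hk2 were lower (limma, Benjamini-Hochberg adjusted p of 7.2e-07 for Hk3 to 0.034 for Slc2a1). Hk1 counts here by its brighter probe set, and its other set was higher in KO, as described below. Pfkl, Pfkp and Ldha did not pass, at 0.09, 0.12 and 0.04 log2. Over all genes 28.3% were called in this comparison, 17.7% higher and 10.7% lower. The median of the 10 genes was 0.10 log2, against 0.01 over all genes. In the same arrays 10 of the 12 B cell markers tested fell, with a median of -0.89 log2. With the mean of these markers as a covariate Hk3 alone kept its call (0.96 log2, limma adjusted p = 0.0084). That fit called 1257 of the 13512 genes in place of 3830, so calls were lost over all genes too. The marker mean was 7.37 to 7.86 log2 in KO and 7.95 to 8.63 in WT, so covariate and genotype cannot be fully separated. In the fit with the covariate Hk2 changed by -0.32, Pgk1 by 0.42, Hif1a by -0.28, Slc2a1 by 0.17, Hk1 by -0.16 and Aldoa by 0.08 log2. Their limma adjusted p-values were 0.072 to 0.624. Without it Hif1a, Hk1 and Hk2 changed by -0.43, -0.22 and -0.29 log2, and the part of B cells was not tested.

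After BG 4 of the 10 genes were called against PBS. Hif1a fell by 0.83 log2, to 1.77-fold lower (limma, adjusted p = 1.5e-10), while Hk3, Pgk1 and Aldoa rose, by 0.56, 0.28 and 0.10 log2. Pfkp and Hk2 just missed the threshold, at 0.22 log2 (adjusted p = 0.0503) and -0.16 log2 (adjusted p = 0.0537). BG was the ligand with the widest response: 41.6% of all genes were called, 20.2% higher and 21.4% lower, so that a share of 4 in 10 is the background's own. The median change was 0.11 log2 over the 10 genes and 0.02 over all genes. Leaving out BG replicate 2 or PBS replicate 1 left 2 of the 4 calls, those of Hif1a and Hk3.

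LPS, PGN and IMQ together gave 1 call in these genes 3 weeks on. After LPS none of the 10 was called, with adjusted p-values of 0.362 to 0.988 by limma, although 9.88% of all genes were (4.36% higher and 5.52% lower), and the largest change was that of Pgk1, at -0.13 log2 with a 95% interval of -0.33 to 0.08. The LPS calls over all genes depended on several single arrays. In place of 1335, 4 genes were called without LPS replicate 2 and 596 without LPS replicate 1. Without PBS replicate 3 or 4 the count was 172 or 440. IMQ gave no call either, with adjusted p-values of 0.129 to 0.954, against 5.69% of all genes (3.09% higher and 2.60% lower). After PGN 1 gene, Hif1a, was lower by 0.26 log2 (limma, adjusted p = 0.014), against 3.91% of all genes called, 2.09% higher and 1.81% lower, and without PGN replicate 3 that call was lost (adjusted p = 0.0594). At an unadjusted limma p under 0.05, 0 of the 10 genes passed after LPS, 2 after PGN (Hif1a and Aldoa) and 2 after IMQ. Those after IMQ were Pfkl and the single-accession probe set of Hk1 described below. The share of all genes passing that threshold was not counted, so these counts are a description only. The 4 ligand comparisons share the PBS arrays.

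PBS-injected mice themselves differed from uninjected WT mice in 4 of the 10 genes. Hif1a, Hk1 and Pfkl were lower, by 0.24, 0.20 and 0.19 log2, and Aldoa was higher by 0.11 log2 (limma, adjusted p of 0.0043 to 0.032). Hk1 counts here by its brighter probe set. Its other set differed by 0.04 log2 and was not called (limma, adjusted p = 0.609), as described below. The mean over its probe sets was not called either (-0.08 log2, limma adjusted p = 0.104). Over all genes 32.7% were called here, 19.7% higher and 12.9% lower. Injection, age and any other difference between these groups cannot be told apart, and the WT arrays are also those the knockout is set against. A fit of the PBS and WT arrays alone left 2 of the 4 calls, those of Hif1a and Hk1, the latter again by its brighter set.

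**Figure D1:**
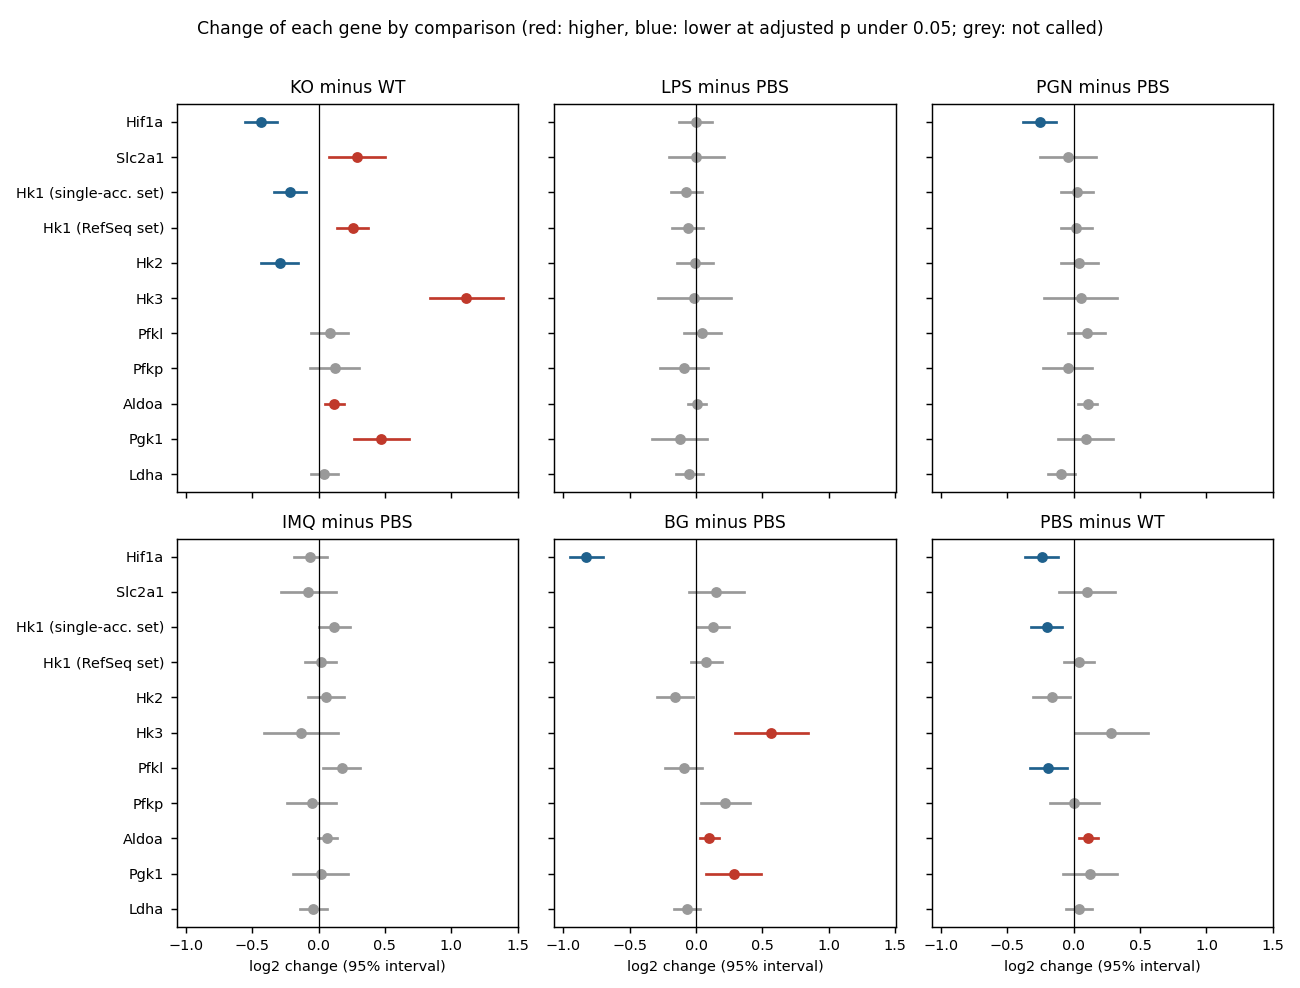
Change of each gene on the log2 scale, with its 95% interval, in 6 comparisons (the first group named minus the second); red marks a higher and blue a lower level at an adjusted p under 0.05, grey no call. KO minus WT shows calls in both directions, BG minus PBS the fall of Hif1a by 0.83 and the rise of Hk3, and LPS minus PBS none; the 2 probe sets of Hk1 are drawn separately.

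Hif1a (chr12:73901324-73947554, plus strand) was lowest after BG and highest in uninjected WT mice. After BG it read 10.60, 10.67, 10.58 and 10.66 log2, against 11.49, 11.45, 11.44 and 11.44 after PBS. All BG arrays lay below every array of the other 6 groups, the lowest of which read 11.12. In KO it read 11.12, 11.22, 11.32 and 11.41, against 11.68, 11.59, 11.80 and 11.73 in WT, again without overlap (-0.43 log2, 95% interval -0.56 to -0.31, limma adjusted p = 5.1e-06). The exact two-sided permutation test gave p = 0.0286, and 4 against 4 arrays allow no lower value. PGN arrays read 11.20, 11.29, 11.12 and 11.19, below the PBS arrays too. LPS and IMQ arrays ran from 11.31 to 11.55 and from 11.23 to 11.48, and both overlapped PBS. The order of the means was WT, PBS, LPS, IMQ, KO, PGN and BG, in which only WT against PBS and PGN against BG were neighbours whose arrays did not overlap.

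The fall of Hif1a after BG was larger than that in KO. The knockout effect minus the BG effect was 0.39 log2 (limma, adjusted p = 0.0011), against 29.1% of all genes called in that difference (18.0% higher and 11.2% lower). The BG call held in every alternative run, leaving out single arrays and adding the B cell covariate included (-0.78 log2 with the covariate, adjusted p = 2.4e-09). The KO call did not hold with that covariate (-0.28 log2, adjusted p = 0.072).

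Slc2a1 (chr4:119108745-119137330, plus strand), the GLUT1 glucose transporter, was higher in KO by 0.29 log2, on overlapping arrays. They read 11.32, 11.49, 11.12 and 11.27 log2 in KO, against 10.80, 11.00, 10.96 and 11.28 in WT (limma, adjusted p = 0.034; exact permutation p = 0.0857). The call was lost on leaving out KO replicate 1 or 2 or WT replicate 1, 2 or 3, with an adjusted p of up to 0.145. BG arrays lay between 11.19 and 11.35 and PBS arrays between 10.75 and 11.34, a difference of 0.15 log2 (95% interval -0.06 to 0.36, limma adjusted p = 0.236). PBS was its most variable group, with an SD of 0.28.

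**Figure D2:**
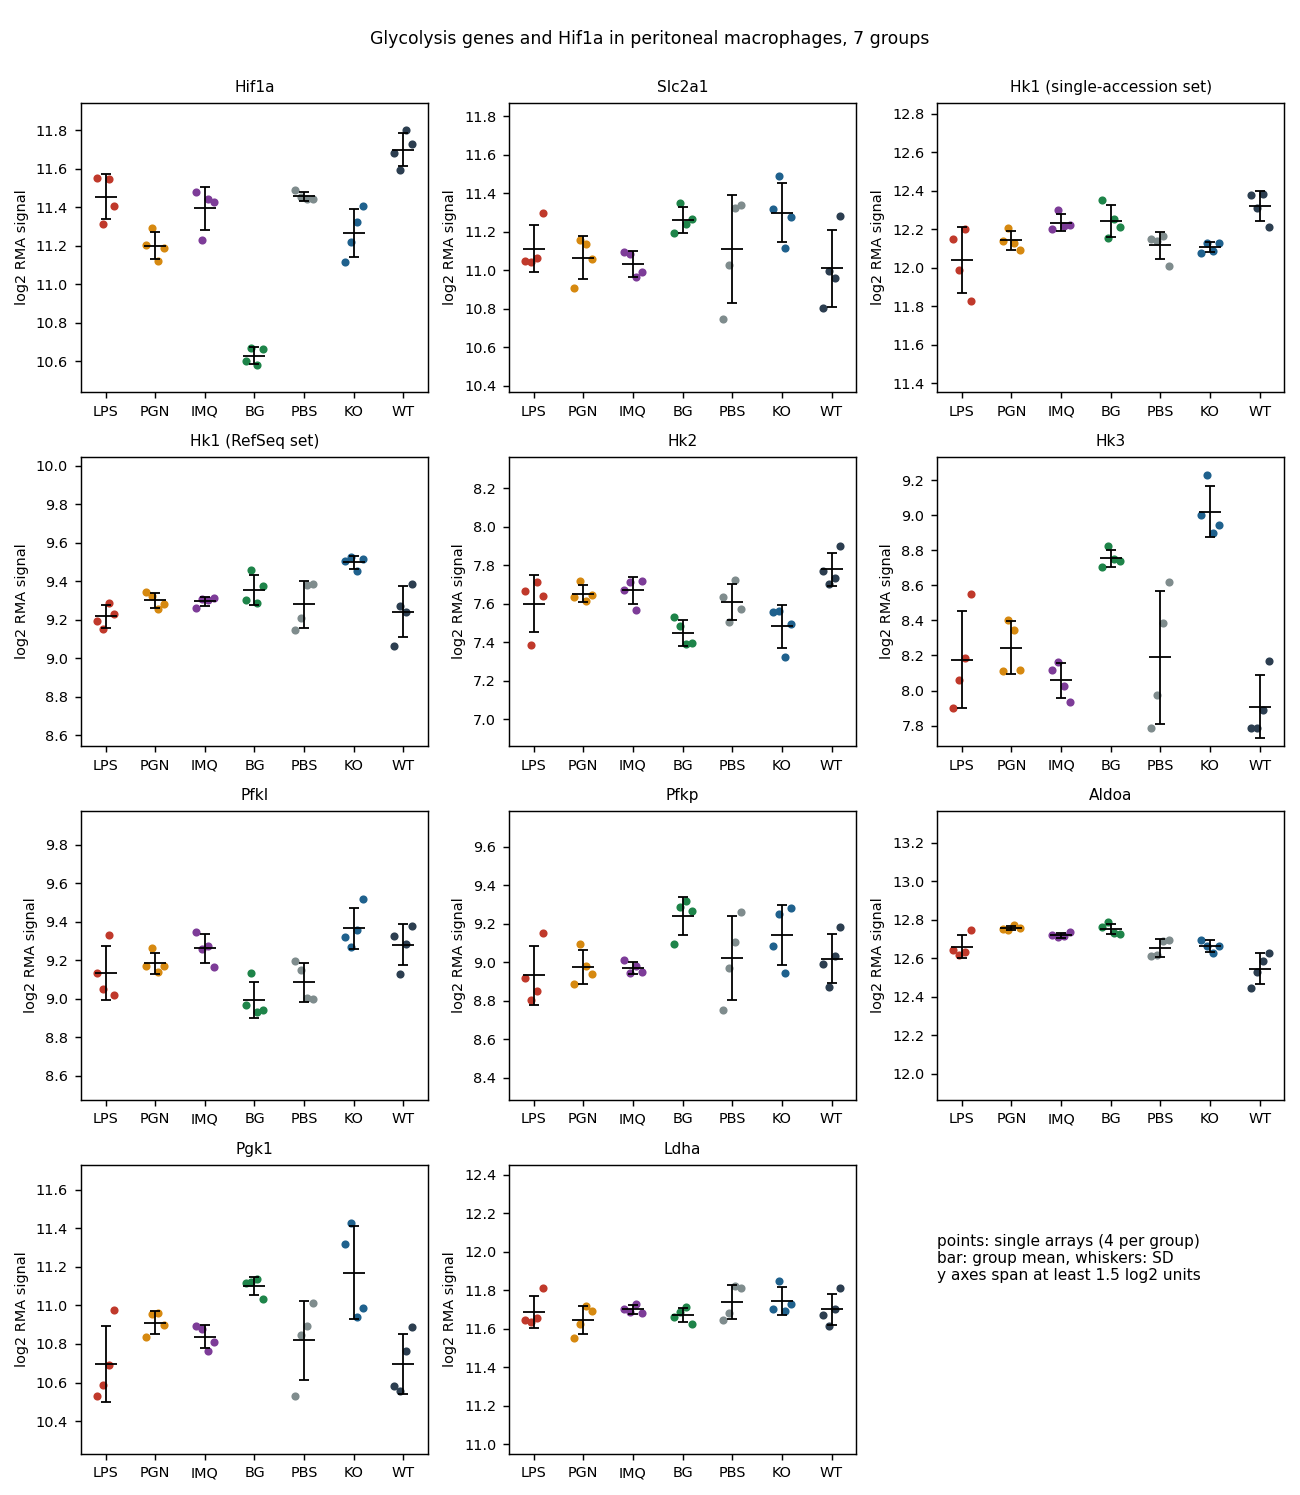
Log2 signal of every array for each gene, by group, with group means (bars) and SD (whiskers); each panel spans at least 1.5 log2 units, and levels of different genes are not to be compared. BG stands apart for Hif1a (10.58 to 10.67) and, with KO, for Hk3, while the 7 groups of Ldha lie level.

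Of the 3 hexokinase genes, Hk3 moved most. Hk3 (chr13:55005985-55021475, minus strand) encodes a hexokinase found chiefly in myeloid cells. KO arrays read 9.003, 9.23, 8.90 and 8.95 log2, against 7.79, 7.79, 7.89 and 8.17 in WT. The groups were far apart: the rise was 1.11 log2 or 2.16-fold (95% interval 0.84 to 1.39, limma adjusted p = 7.2e-07). BG arrays read 8.71, 8.82, 8.75 and 8.74, against 7.78, 7.97, 8.38 and 8.62 after PBS, a rise of 0.56 log2 or 1.48-fold (limma, adjusted p = 0.0015). The PBS arrays were the widest of any group for Hk3, with an SD of 0.38, and the BG arrays the tightest, with an SD of 0.05.

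The mean of Hk3 was highest in KO, next in BG, then in PGN, PBS, LPS, IMQ and WT. KO lay above BG and BG above PGN without overlap, and the other neighbours overlapped. The knockout effect exceeded the BG effect by 0.55 log2 (limma, adjusted p = 0.031) and the LPS effect by 1.13 log2 (limma, adjusted p = 1.4e-04). The first of these was lost with the B cell covariate (0.45 log2, adjusted p = 0.162) and on leaving out BG replicate 1, KO replicate 2, PBS replicate 3 or 4, or WT replicate 1 or 2 (adjusted p of 0.051 to 0.083).

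Hk2 (chr6:82725025-82774454, minus strand), the inducible hexokinase of many activated cells, was lower in KO. Arrays read 7.56, 7.56, 7.32 and 7.50 log2 in KO and 7.77, 7.70, 7.73 and 7.90 in WT. The groups did not overlap, and the change was -0.29 log2, or 1.23-fold lower (95% interval -0.43 to -0.16, limma adjusted p = 0.0014). BG had the lowest mean of the 7 groups, with arrays at 7.39 to 7.53, against 7.50 to 7.73 in PBS. Thus Hk2 and Hk3 changed in opposite directions in KO.

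Hk1 (chr10:62268855-62379920, minus strand), the hexokinase of most tissues, was read differently by its probe sets. The brighter one, which stood for the gene above, carries 1 accession in the annotation and is called here the single-accession set. The other carries 8 accessions, RefSeq transcripts of Hk1 among them, and is called here the RefSeq set. The single-accession set read 12.08, 12.13, 12.09 and 12.13 log2 in KO and 12.38, 12.31, 12.38 and 12.21 in WT, lower in KO by 0.22 log2 (limma, adjusted p = 0.0057). The RefSeq set read 9.50, 9.52, 9.45 and 9.51 in KO and 9.07, 9.27, 9.24 and 9.39 in WT, higher in KO by 0.26 log2 (limma, adjusted p = 0.0010 over 14800 probe sets). Neither pair of groups overlapped, so the direction of Hk1 in KO depends on the probe set. The same holds for PBS against WT, where the single-accession set fell by 0.20 log2 and the RefSeq set differed by 0.04 log2 (limma, adjusted p = 0.609).

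A further 16 probe sets carry Hk1 in their annotation beside Rpl17, a ribosomal protein gene, some with further names. Their correlation with the single-accession set over the 28 arrays was 0.755 to 0.939, and with the RefSeq set -0.293 to -0.070. The 2 Hk1 sets correlated at -0.177 with each other. After subtraction of the group means the joint sets still correlated with the single-accession set at 0.471 to 0.866, and the RefSeq set at -0.266. In KO minus WT all 16 joint sets lay between -0.29 and -0.16 log2. The genes most like the single-accession set over the 28 arrays were Gm8624 (r = 0.843) and Rps25, a ribosomal protein gene (r = 0.819). Those most like the RefSeq set were Procr (r = 0.887) and Scimp (r = 0.843). These correlations share arrays and normalisation and are descriptions, and whether the single-accession set reads Rpl17 was not tested.

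**Figure D3:**
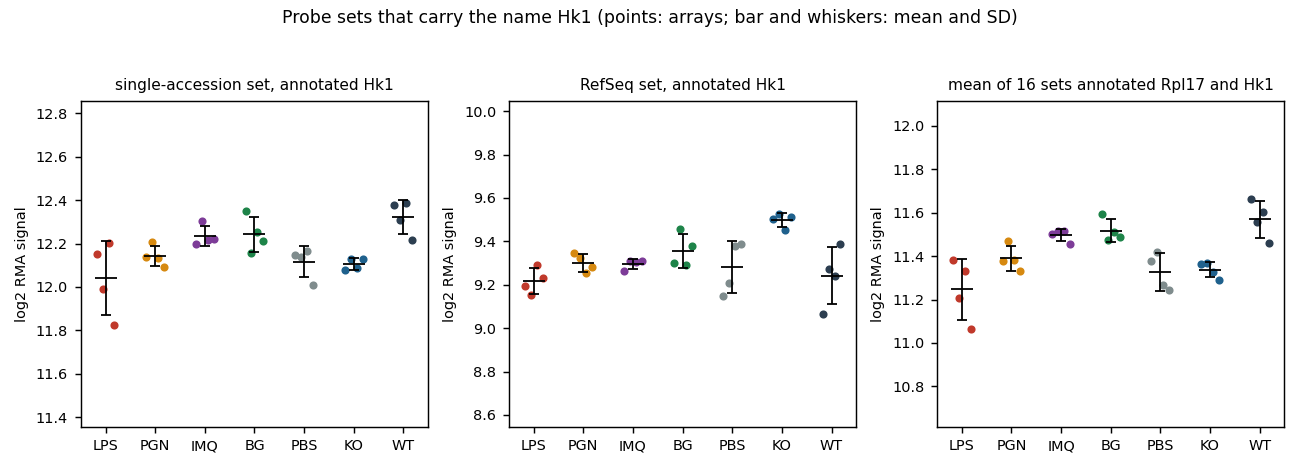
Log2 signal per array and group, with group mean (bar) and SD (whiskers), of the single-accession set of Hk1, of its RefSeq set, and of the mean of the 16 probe sets annotated to Rpl17 and Hk1 together. KO lies below WT in the outer panels and above it in the middle one, where KO reads 9.45 to 9.52 and WT 9.07 to 9.39.

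Neither phosphofructokinase gene was called in KO, and Pfkp lay at the threshold after BG. Pfkl (chr10:77986947-78009807, minus strand), the liver-type subunit, read 9.27 to 9.52 log2 in KO and 9.13 to 9.38 in WT, and 8.93 to 9.13 in BG and 8.999 to 9.20 in PBS. PBS was lower than WT by 0.19 log2 (limma, adjusted p = 0.032), on overlapping arrays, and that call was lost without PBS replicate 3 or 4 or WT replicate 1 or 4. Pfkp (chr13:6579874-6649060, minus strand), the platelet-type subunit, read 9.10, 9.29, 9.32 and 9.26 in BG and 8.75, 8.97, 9.11 and 9.26 in PBS. The BG arrays were high and close together while the PBS arrays spread with an SD of 0.22. The difference of 0.22 log2 missed the threshold (limma, adjusted p = 0.0503). It was called with the B cell covariate, with quantile normalisation again, with a stricter floor or filter, with the replicate block, and without BG replicate 1 or PBS replicate 3 or 4, at 0.22 to 0.30 log2 (adjusted p of 0.0097 to 0.0495).

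Aldoa and Pgk1, further down the pathway, both rose in KO and after BG. Aldoa (chr7:126795234-126800994, minus strand), the aldolase of muscle and most other cells, changed little: 12.70, 12.66, 12.62 and 12.67 log2 in KO against 12.44, 12.53, 12.59 and 12.62 in WT, or 1.08-fold (limma, adjusted p = 0.011). In BG it read 12.76, 12.79, 12.73 and 12.73, against 12.61, 12.62, 12.69 and 12.69 in PBS, or 1.07-fold (limma, adjusted p = 0.025). PGN arrays, at 12.75 to 12.77, and IMQ arrays, at 12.71 to 12.74, also lay above every PBS array, but at adjusted p-values of 0.0924 and 0.272 by limma they were not called. PGN had the highest mean of the 7 groups. Its rise over PBS was 0.104 log2 (limma, unadjusted p = 0.0057), and that of BG 0.098 log2 (0.0086). The rise was thus no larger after BG, where 41.6% of all genes were called against 3.91% after PGN. The KO and WT arrays of Aldoa overlapped (exact permutation p = 0.0571). Its KO call was lost without WT replicate 1, in the fit of the compared arrays alone and with the B cell covariate (limma, adjusted p of 0.0732, 0.0987 and 0.453). Its BG call was lost without BG replicate 2 or PBS replicate 1 or 2. The BG call was also lost with the B cell covariate (limma, adjusted p = 0.0815) and with arrays centred on their median (0.114).

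Pgk1 (chrX:106187100-106203699, plus strand), the phosphoglycerate kinase of somatic cells, rose more. KO arrays read 11.32, 11.43, 10.94 and 10.99 log2, against 10.58, 10.56, 10.76 and 10.89 in WT. KO replicates 1 and 2 were well above the other KO arrays, yet all 4 lay above WT (0.47 log2, 1.39-fold, 95% interval 0.27 to 0.68, limma adjusted p = 7.7e-04). BG arrays read 11.12, 11.12, 11.14 and 11.03, against 10.53, 10.85, 10.89 and 11.01 in PBS, a rise of 0.28 log2 or 1.22-fold (limma, adjusted p = 0.027). Without PBS replicate 1, the lowest of the group, it was 0.19 log2 and not called (adjusted p = 0.143), and it also lost its call without BG replicate 1, 2 or 3, with the B cell covariate (0.0692) and with median centring (0.0515). KO and BG overlapped with each other, and BG lay above PGN without overlap. Of 3 Pgk1 probe sets 2 held identical values on all 28 arrays and were counted once, and the other one correlated with them at 0.998.

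Ldha (chr7:46842274-46855627, plus strand), the lactate dehydrogenase subunit that favours lactate, was flat. Its 7 group means lay between 11.65 (PGN) and 11.74 (KO), a range of 0.10 log2, with group SDs of 0.02 to 0.09. KO arrays read 11.70, 11.85, 11.69 and 11.73 log2, against 11.67, 11.62, 11.70 and 11.81 in WT. The 95% interval of the difference was -0.06 to 0.14 log2, and that of BG minus PBS -0.17 to 0.03. Among the 6 comparisons the interval bound farthest from 0 was -0.20 log2, for PGN minus PBS. Its range of group means was the smallest of the 10 genes.

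Comparing the ligands directly, BG stood apart from the other 3. Against the mean of LPS, PGN and IMQ, 6 of the 10 genes were called, where 40.1% of all genes were (18.4% higher and 21.7% lower). Hk3, Pgk1 and Pfkp were higher after BG, by 0.60, 0.29 and 0.28 log2. Hif1a, Pfkl and Hk2 were lower, by 0.72, 0.20 and 0.19 log2 (limma, adjusted p of 1.6e-11 for Hif1a to 0.0063 for Pgk1). With the B cell covariate the calls of Pfkl (-0.13 log2, adjusted p = 0.181) and Pgk1 (0.26 log2, adjusted p = 0.0678) were lost. This contrast does not use the PBS arrays. Against LPS alone 6 genes were called too, with 34.9% over all genes (18.2% higher and 16.7% lower): Hk1, Hk3, Pfkp, Aldoa and Pgk1 were higher after BG and Hif1a was lower (-0.83 log2). The Aldoa call (0.09 log2, adjusted p = 0.039) was lost in 11 alternatives, the B cell covariate, the fit of the compared arrays alone and 6 single arrays left out among them. Hk1 enters the count through its single-accession set, and not without LPS replicate 4 (0.13 log2, adjusted p = 0.0525). Its RefSeq set differed by 0.14 log2 (limma, adjusted p = 0.0567). By the limma F test for any difference among the ligands and PBS, 8 of the 10 genes were called, all but Slc2a1 and Ldha, against 53.8% of all genes.

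Set side by side, the genes called in both the knockout and the BG comparison, Hif1a, Hk3, Pgk1 and Aldoa, changed in the same direction in each. The share of all genes called in both that did so was not counted, so this is a description only. Hif1a changed by -0.43 log2 in KO and -0.83 after BG, Hk3 by 1.11 and 0.56, Pgk1 by 0.47 and 0.28, and Aldoa by 0.12 and 0.10. The difference of the 2 effects was called for Hif1a, Hk3 and Hk1 (single-accession set, -0.34 log2, limma adjusted p = 0.0027) and for none of the other 7. Over all genes 29.1% were called in that difference, 18.0% higher and 11.2% lower, so 3 in 10 is near that share. With the RefSeq set of Hk1 the difference was 0.18 log2 and not called (limma, adjusted p = 0.0867). For Pgk1 it was 0.19 log2, with a 95% interval of -0.10 to 0.48. Against LPS the difference was called for 4 genes, with 29.3% over all genes (18.8% higher and 10.5% lower): Hk3 and Pgk1 (0.60 log2) on the higher side, Hif1a (-0.43) and Hk2 (-0.28) on the lower. With the B cell covariate Hk3 alone kept this call (limma adjusted p of 0.077 to 0.126 for the other 3). The share of all genes called in this difference with the covariate was not counted. The Hk2 call was also lost with median centring, in the fit of the compared arrays alone and without KO replicate 3, LPS replicate 1 or 3, PBS replicate 2 or WT replicate 4. With the RefSeq set the Hk1 difference against LPS was 0.32 log2 and called (limma, adjusted p = 0.0046).

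Within groups, 6 of the genes moved together from array to array. After each group's mean was subtracted, all 15 pairs among Slc2a1, Hk3, Pfkp, Aldoa, Pgk1 and Ldha correlated at 0.597 to 0.891 over the 28 arrays. Hif1a correlated with these 6 at -0.277 to 0.155. These 6 were grouped after their values were seen, so no test is given. Arrays of a group share normalisation, and many other genes correlated with the 6 as well. At a correlation of 0.5, a lower bar than the 0.597 of the lowest pair, 12.7% of all other genes passed with Hk3. The share was 13.8% with Pgk1, 10.3% with Slc2a1, 10.4% with Ldha, 10.0% with Aldoa, 8.54% with Pfkp and 4.90% with Hif1a. All 6 lay above their group mean on PBS replicates 3 and 4, LPS replicate 4, WT replicate 4 and KO replicate 2, and all 6 below it on PBS replicate 1, KO replicate 3, WT replicate 1 and LPS replicate 1, among others. The mean level of the macrophage markers moved the other way, at -0.678 to -0.513 with the 6 genes, as did the array's median signal, at -0.521 to -0.213. Monocyte and dendritic cell markers moved with them, at 0.316 to 0.548. Their part in the pattern was not tested.

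**Figure D4:**
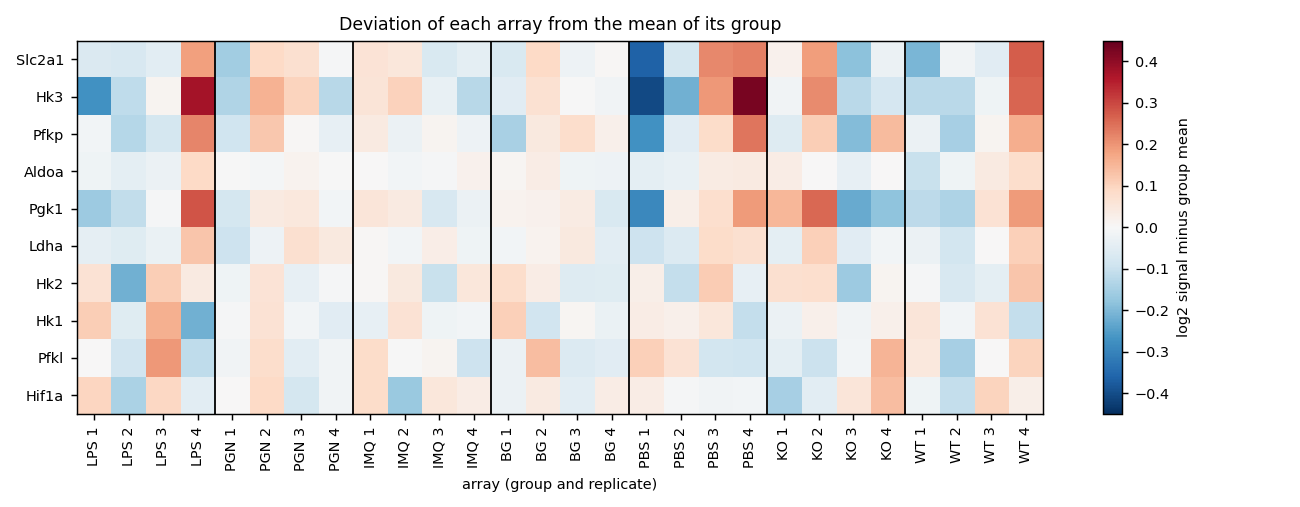
Each cell is 1 array's log2 signal minus the mean of its group (colour scale, red above and blue below), for the 10 genes (down) and 28 arrays (across, split by group). The top 6 genes share their colours on single arrays, red on LPS 4, PBS 4 and WT 4 and blue on PBS 1, while Hif1a and Pfkl at the bottom do not follow them; Hk1 is its single-accession set.

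The genes whose levels followed each member most closely over the 28 arrays were mostly of other pathways. Thbs1 (r = 0.941) and Stx5a (0.909) were nearest to Hif1a, Procr (0.938) and Slc23a2 (0.932) to Hk3, Bcl2l1 (0.913) and Slc23a2 (0.885) to Slc2a1, and Fbxo11 (0.762) and Taok2 (0.736) to Hk2. Esd (0.942) and Akr1b8 (0.935) were nearest to Pgk1, Lair1 (0.938) and Clec12a (0.893) to Aldoa, and Ppfibp2 (0.828) and Serpinb9 (0.822) to Pfkp. For Pfkl they were Sc5d (0.897) and Msmo1 (0.895), both enzymes of cholesterol synthesis, and for Ldha Tbc1d9 (0.801) and Osgin1 (0.748). These are the highest of the correlations with all other genes, over arrays that share groups and normalisation, and are given as descriptions.

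Of the other glycolytic enzymes 11 of 18 could be tested. Gapdh, Gpi1 and Eno1 have no probe set of a single symbol and were not analysed here. Among the 11, 2 rose and 2 fell in KO, where 17.7% of all genes rose and 10.7% fell. After BG 3 rose and 1 fell, where 20.2% rose and 21.4% fell, few genes beside those shares. In KO Tpi1 and Adpgk rose (0.27 and 0.19 log2) and Ldhb and Eno3 fell, while Pgam1, Pkm, Aldoc and Pfkm were not called (0.09, 0.13, -0.18 and -0.09 log2). After BG Tpi1, Pkm and Adpgk rose (0.29, 0.28 and 0.14 log2) and Ldhb fell. Ldhb, the lactate dehydrogenase subunit of heart and of many resting cells, was the largest of these changes in both. It averaged 7.18 ± 0.32 log2 in KO and 7.94 ± 0.14 in WT, and 7.39 ± 0.07 in BG and 8.16 ± 0.20 in PBS (SD, n = 4 each), and the groups did not overlap in either comparison. That is -0.76 and -0.77 log2 (limma, adjusted p = 6.0e-05 and 3.2e-05), beside the flat Ldha. The median of the 11 was 0.09 log2 in KO and 0.11 after BG, against 0.01 and 0.02 over all genes.

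Of 11 glucose and lactate transporters other than Slc2a1, 2 rose and 3 fell in KO, where 17.7% of all genes rose and 10.7% fell, and 3 rose and 3 fell after BG, where 20.2% rose and 21.4% fell. Counts this small lie near those shares, and the same shares stand behind the lists that follow. Slc2a6, a transporter abundant in activated macrophages, rose in KO (0.26 log2), after BG (0.33) and after LPS (0.29 log2, limma adjusted p = 0.042). The LPS calls over all genes depended on single arrays, as given above, and for Slc2a6 this was not followed. In KO Slc16a1, a lactate transporter, rose by 0.31 log2, and Slc16a3, the lactate exporter and a HIF target, fell by 0.26 log2. Slc2a3 is counted among the falls in KO, but its means, 6.17 log2 in KO and 6.41 in WT, lie on either side of the floor, so no size is given. Among 9 enzymes of fructose 2,6-bisphosphate and gluconeogenesis 3 rose and 1 fell in KO, led by Pcx (0.69 log2), and 0 rose and 2 fell after BG, again few genes beside the shares above. Pfkfb3, which makes the activator of phosphofructokinase, was not called in any of the 6 comparisons, with changes of -0.16 to 0.19 log2.

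The partners and oxygen sensors of HIF fell more often than they rose after BG: 7 of 14 tested were lower and 2 higher, with 21.4% and 20.2% over all genes. Arnt, the HIF partner, averaged 9.84 ± 0.06 log2 in BG and 10.18 ± 0.06 in PBS (SD, n = 4 each), a fall by 0.34. Epas1, which encodes HIF-2 alpha, fell by 0.61 and the coactivator Ep300 by 0.26. Egln3, an oxygen sensor that is itself a HIF target, fell by 0.83 log2 after BG and by 1.08 in KO (limma, adjusted p = 9.6e-05 and 5.8e-06), where 3 of the 14 rose and 3 fell. Vhl and Egln1 were not called in KO or after BG, at 0.13 and -0.06 log2 in KO and -0.12 and 0.04 after BG. The median of the list was -0.12 log2 after BG and -0.02 in KO.

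Other HIF target genes, 21 tested, gave 6 lower and 0 higher after BG, against 21.4% and 20.2% of all genes. Among the 6 were Bnip3l (-0.26 log2), a mitophagy receptor, Mxi1 (-0.44), a MYC antagonist, and Egln3, while the median of the list was -0.01. Egln3 is counted among the partners and oxygen sensors too, so the falls of these lists are not separate counts. In KO 4 were higher and 4 lower, against 17.7% and 10.7%, with Ddit4 at -0.49 log2. Pdk1, which holds pyruvate back from the mitochondria, fell after BG (-0.21) and after LPS (-0.30 log2, limma adjusted p = 0.016). For this LPS call, too, dependence on single arrays was not followed. Vegfa, the vascular growth factor, rose by 0.82 log2 after PGN and 0.75 after IMQ (limma, adjusted p = 5.4e-06 and 5.3e-06), where the 10 genes gave 1 call and none, by 0.28 in KO, and was not called after BG (0.17) or LPS (-0.10).

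Along the AKT and mTOR route, 23 genes tested, Mtor and Akt1 themselves were not called in any of the 6 comparisons. After BG 3 genes rose, Myc, Pik3cb and Pik3cd, and 7 fell, among them Pik3cg (-0.49 log2), Prkaa1 (-0.43), which encodes the energy sensor AMPK alpha 1, and Inpp5d (-0.40), where 20.2% of all genes rose and 21.4% fell. In KO 4 rose, led by Rheb (0.38 log2), the activator of mTOR, and 2 fell, against 17.7% and 10.7% of all genes. Of 8 pentose phosphate genes 4 rose and 1 fell in KO, and 2 rose and 2 fell after BG, beside the same shares, with Taldo1 higher in both (0.37 and 0.33 log2). Of 33 genes of pyruvate entry and the TCA cycle 14 rose and 1 fell in KO, against 17.7% and 10.7% of all genes, and 5 rose and 8 fell after BG. Acod1, which makes itaconate, rose in both (0.49 and 0.43 log2), Pdk2 fell in both (-0.30 and -0.44), and Cs, citrate synthase, fell after BG (-0.31). After LPS, PGN or IMQ none of these lists had more than 3 called genes. After PGN 2 of the 14 HIF partners and oxygen sensors rose and 1 fell, where 2.09% of all genes rose and 1.81% fell. After IMQ 2 of these 14 rose and 0 fell, against 3.09% and 2.60%. After LPS 0 of the 33 genes of pyruvate entry and the TCA cycle rose and 3 fell, against 4.36% and 5.52%. These are few genes beside those shares. In KO and BG the average levels of the B cell, cell cycle, monocyte and macrophage markers were lower too, and their part was not tested. Single monocyte and macrophage markers went both ways, as given above.

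**Figure D5:**
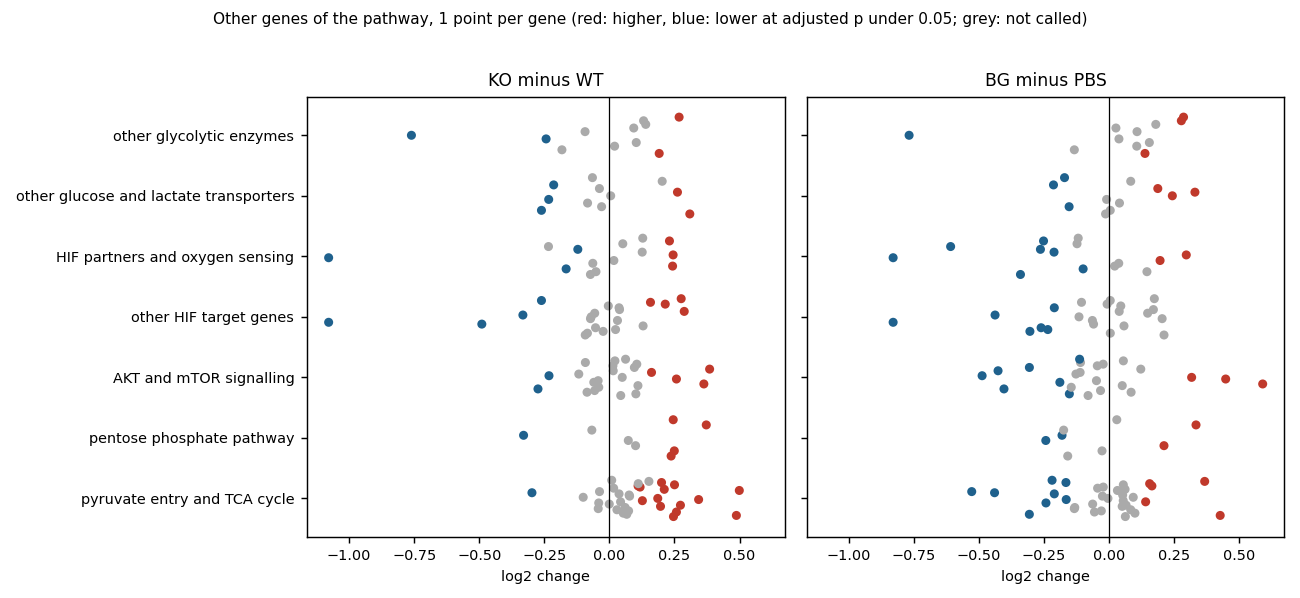
Log2 change of every tested gene of 7 lists around glycolysis (1 point per gene, spread vertically by name only), for KO minus WT and BG minus PBS; red marks higher and blue lower at an adjusted p under 0.05, grey no call. After BG the points of HIF partners and HIF targets that are called lie mostly left of 0, and in KO those of the TCA list mostly right of it, where 14 rose and 1 fell. Egln3 is drawn in both HIF lists.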

How the data were processed

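Gene expression was measured on Affymetrix arrays, 28 in 7 groups of 4. The deposited values are RMA signal intensities on a linear scale, which the authors made with Affymetrix Expression Console, per the submitters' processing notes. Its version is not given in the sources used here, nor is a genome build. Log2 of these intensities was taken here. Of 35556 probe sets 21789 carry 1 gene symbol and 1621 several, and those with several name no gene here, so that Gapdh, Gpi1, Eno1 and G6pdx were not analysed. A floor for background was taken at the 95th percentile of 1210 receptor probe sets (6.32 log2, 80.04 linear). Probe sets above it in at least 4 arrays were kept (14800, 13512 genes), and the one with the highest mean stood for a gene.

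limma 3.58.1 (R 4.3.3) was fitted with 1 mean per group over all 28 arrays and the trend option on. Calls were made at a Benjamini-Hochberg adjusted p of 0.05 over all genes, and p-values measure the spread between these samples only. The code was tested on simulated data. The number of arrays limits the precision. Promoter windows and gene positions come from RefSeq (GRCm38.p6), and figures from Python 3.11.15 with matplotlib 3.10.9.

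The genes and lists were chosen with earlier results of these data known. All 10 genes were named in every comparison. Of each further list up to 3 called genes with the smallest p were named, beside a fixed set of pathway genes; Pik3cb and Myc were named after their values were seen. Replicate numbers showed no clear pairing of the samples. Deviations of same-numbered arrays of different groups correlated at a median of 0.03 over 84 pairs of arrays, with 26 over 0.1. Those of other-numbered arrays correlated at a median of -0.01 over 252 pairs, with 69 over 0.1. Alternatives were other floors and filters, the mean over a gene's probe sets, median centring, repeated quantile normalisation, fits of the compared arrays alone, a replicate block, B cell markers as a covariate and leaving out each array; Hk1 by its RefSeq set was added after seeing the data.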

Additional observations from a re-analysis of the deposited data

Results flagged for a closer look

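In 91 groups of 4 arrays, 3 single arrays stood further from the rest of their group than Dixon's 95% critical value allows, where chance gives about 1 in 20. Slc2a1 read 11.3 log2 on LPS replicate 4, against 11.04 to 11.06 on the other LPS arrays. Ldha read 11.81 on the same array, against 11.64 to 11.66 on the others. The RefSeq set of Hk1 read 9.26 on IMQ replicate 1, against 9.3 to 9.31 on the other IMQ arrays.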

How the results depend on the processing

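Most calls in the 10 genes kept their direction; the exceptions follow, and where no value shows it the cause was not tested. With B cell markers as a covariate 1257 genes in place of 3830 were called in KO minus WT and 409 in place of 769 in IMQ minus PBS, and the members called were 1 in KO minus WT, 1 in the knockout effect minus the LPS effect and 5 in the F test. Fits of only the arrays compared, which have fewer samples, called 2409 genes in KO minus WT, 508 in LPS, 272 in PGN and 2066 in PBS minus WT, with 2 members there; quantile normalisation again called 861 in LPS. With the RefSeq set, an alternative chosen after seeing the data, Hk1 changed sign. It gave 0.26 log2 in KO minus WT, 0.039 in PBS minus WT, and 0.32 and 0.18 in the knockout effect minus the LPS and BG effects. The values of 0.039 and 0.18 were not called, so they show no direction. The mean over its probe sets gave 0.021 in KO minus WT and was not called either. Leaving out single arrays gave 2942 to 3991 genes in KO minus WT, 4 to 1558 in LPS (4 without LPS replicate 2), 283 to 483 in PGN, 400 to 758 in IMQ, 4837 to 5277 in BG and 2752 to 5306 in PBS minus WT. Members called ranged over 5 to 7 in KO minus WT, 0 to 0 in LPS and IMQ, 0 to 1 in PGN, 2 to 5 in BG, 2 to 5 in PBS minus WT (2 without PBS replicate 4 or WT replicate 1), 6 to 7 in BG minus the mean of the other ligands, 5 to 6 in BG minus LPS, 3 to 6 and 2 to 3 in the knockout effect minus the LPS and BG effects, and 5 to 8 in the F test (5 without BG replicate 3). The replicate block gave 3845 genes in KO minus WT, 1438 in LPS, 508 in PGN, 765 in IMQ, 5667 in BG and 4415 in PBS minus WT, and 7 members in KO minus WT and 5 in BG, where Pfkp (0.22 log2, limma adjusted p = 0.0311) was added.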
